A study of Mus musculus with 36 samples.

Results

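The chromatin response to the TLR4 ligand LPS, given as the only stimulus, was measured at 119750 peaks outside the mitochondrial genome, of 119751 peaks in the deposited count table. All peaks outside the mitochondrial genome were taken, and the samples were the 2 libraries of the LPS group (L) and the 2 libraries of the control group (Ctrl), 4 of the 36 libraries of the study. The study profiled bone marrow-derived dendritic cells by ATAC-seq, in which a transposase cuts and tags open chromatin, after exposure to single ligands of innate sensors and to their combinations. The cells came from female C57BL/6J mice of 6 to 8 weeks, whose marrow was cultured with 15 ng/mL GM-CSF. LPS cells received LPS as the only ligand in a 6 h stimulation, and the control group carries the label Ctrl with no ligand named. 12 further libraries served to ask whether LPS acted alike beside other ligands: P (PAM alone) with PL (PAM and LPS), H (HMW alone) with LH (LPS and HMW), and PH (PAM and HMW) with PLH (all of PAM, LPS and HMW), each group with 2 libraries. PAM and HMW are the labels' names. Nothing in the sources used here says whether the libraries of a group came from separate cultures or mice, so the p-values measure the spread between these samples, which may be technical.

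LPS, a component of the outer membrane of Gram-negative bacteria, is handed by Lbp and Cd14 to the receptor Tlr4 and its partner Ly96 (MD-2). One signalling arm runs from the plasma membrane through Tirap, Myd88, the Irak kinases and Traf6 to NF-kappaB and AP-1, which drive cytokine genes. A second arm runs from endosomes through Ticam2 and Ticam1 (TRIF), Traf3 and Tbk1 to Irf3, interferon beta and then interferon-stimulated genes. Feedback proteins such as Socs1, Socs3 and Tnfaip3 (A20) restrain both. In dendritic cells this signal is known to start maturation, in which uptake of antigen falls while costimulation and migration rise. Marrow cultures grown in GM-CSF are known to hold dendritic cell-like and macrophage-like cells together. In bulk libraries a changed share of cells and a change within cells cannot be told apart.

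The promoter sequences below, the 250 bases before the start in RefSeq (GRCm38.p6), show what kinds of sequence lie under start peaks that the results turn on: a cytokine, a chemokine and 2 interferon-stimulated genes, whose peaks were higher after LPS, and a mannose receptor, whose peak was lower. Capitals mark matches to the motifs searched on both strands: GGG and TTCC with 3 bases of any kind between them (kappaB), GAAA and GAAA with 2 bases between them (ISRE, bound by IRF and STAT complexes), TGANTCA (AP-1), TGACGTCA (CRE), TTCNNNGAA (STAT), TTGCNNAA (C/EBP), GAGGAAGT (PU.1), CCGGAAG (ETS), GGGGCGGGG (SP1), GCGCA and GCGC with 1 base between them (NRF1), CCAC, AGG and GGCA with 1 base between each (CTCF) and TGTGGTTT (RUNX).
Il6, chr5:30012864-30013113, plus strand: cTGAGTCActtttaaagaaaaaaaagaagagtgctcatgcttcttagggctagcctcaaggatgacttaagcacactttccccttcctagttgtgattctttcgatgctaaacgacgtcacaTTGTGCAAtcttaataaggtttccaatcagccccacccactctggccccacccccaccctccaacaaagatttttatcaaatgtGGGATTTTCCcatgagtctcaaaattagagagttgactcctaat
Cxcl10, chr5:92348890-92349139, minus strand: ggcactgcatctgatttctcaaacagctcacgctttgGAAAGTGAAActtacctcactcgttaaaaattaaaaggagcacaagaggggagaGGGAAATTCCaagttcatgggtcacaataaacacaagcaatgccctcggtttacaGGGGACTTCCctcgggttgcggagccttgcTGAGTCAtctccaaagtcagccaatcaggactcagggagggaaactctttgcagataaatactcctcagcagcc
Isg15, chr4:156200819-156201068, minus strand: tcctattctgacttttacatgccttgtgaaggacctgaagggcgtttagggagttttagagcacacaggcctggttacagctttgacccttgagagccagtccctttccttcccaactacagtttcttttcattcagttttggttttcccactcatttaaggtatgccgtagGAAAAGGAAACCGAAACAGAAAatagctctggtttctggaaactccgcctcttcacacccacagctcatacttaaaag
Gbp5, chr3:142496684-142496933, plus strand: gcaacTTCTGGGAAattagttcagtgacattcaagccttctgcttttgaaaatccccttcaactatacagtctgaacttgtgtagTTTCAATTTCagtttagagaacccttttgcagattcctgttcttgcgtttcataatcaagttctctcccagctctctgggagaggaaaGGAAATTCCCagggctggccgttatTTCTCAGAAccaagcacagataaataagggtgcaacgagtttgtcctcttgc
Mrc1, chr2:14229164-14229413, plus strand: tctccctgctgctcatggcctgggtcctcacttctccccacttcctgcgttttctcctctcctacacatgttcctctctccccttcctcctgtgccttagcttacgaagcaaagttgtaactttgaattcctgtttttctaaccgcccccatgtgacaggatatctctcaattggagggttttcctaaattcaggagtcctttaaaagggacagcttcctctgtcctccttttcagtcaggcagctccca
Il6 held a kappaB match 44 to 35 bases before its start, with an AP-1 and a C/EBP match farther out. Cxcl10 held 2 kappaB matches, an ISRE match and an AP-1 match. The Isg15 window held 3 overlapping ISRE matches between 78 and 57 bases before the start, and the Gbp5 window a kappaB match, an ISRE match and 2 STAT matches. The Mrc1 window held none of these letters. A match is a description of the letters and not evidence of a bound factor.

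A further sequence belongs to the microRNA gene whose peak changed among those of lowest p-value, Mir155. Capitals mark the seed, bases 2 to 8, in the RefSeq mature sequence.
mmu-miR-155-5p, chr16:84714143-84714165, plus strand: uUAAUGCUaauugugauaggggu

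Total counts ran from 22427354 to 29996790 over the 4 libraries, with 11213646 to 16530431 of them outside the mitochondrial genome. The mitochondrial share was 60.1% and 61.9% in control and 44.1% and 44.6% in LPS, so that it separates the compared groups, and its part in the results was not tested. The 21 peaks averaging at least 500 CPM (counts scaled to the library size) held 36.9% and 35.1% of the other counts in control against 20.9% and 20.05% in LPS. The most abundant of them, chr1:24611386-24616337, had a log2 ratio of -1.39, beside -1.40 for the mitochondrial genome on the same scale. Pearson's r of log2 CPM across peaks was 0.948 between the control libraries, 0.961 between the LPS libraries and 0.882 to 0.902 between the groups. The summed CPM at the starts of 9 dendritic cell markers was 135 and 141 in control against 137 and 146 in LPS, and Itgax, which encodes CD11c, was among them at 13.7 and 16.5 against 12.6 and 16.3. Among these markers Zbtb46 had 1.64 CPM or less in each library, and Cd209a had no peak at its start. The 6 macrophage markers summed to 174 and 162 against 149 and 147, and the 3 of 9 neutrophil markers with a start peak to 49.1 and 38.8 against 36.8 and 35.5. None of the 5 T cell markers had a peak at its start, and 2 B cell, 3 erythroid and 1 mast cell gene did, with sums of 18.2 CPM or less.

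LPS changed accessibility at 26675 of 119464 tested peaks, 22.3% of all tested, by edgeR's quasi-likelihood test at a Benjamini-Hochberg adjusted p-value under 0.05. Of these, 13436 (11.2% of all tested) were higher and 13239 (11.1%) were lower. The gains were larger than the losses: 3766 higher peaks passed 4-fold and 1212 passed 8-fold, against 883 and 54 lower peaks. The median log2 fold change was 1.44 among higher and -0.96 among lower peaks. Higher peaks started from little signal, with a median of 1.49 CPM in control and 4.21 CPM in LPS. Lower peaks went from a median of 10.2 CPM to 5.13 CPM. A count of 0 in both control libraries was seen at 313 higher peaks, and none of the lower peaks had 0 counts in both LPS libraries. The control and LPS values did not overlap at 99.6% of called peaks and at 59.3% of all tested peaks. Without single libraries the count of called peaks fell to 17007 (LPS replicate 1) and 16320 (control replicate 1), in fits where the lone library is assumed to vary like the other groups.

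**Figure D1:**
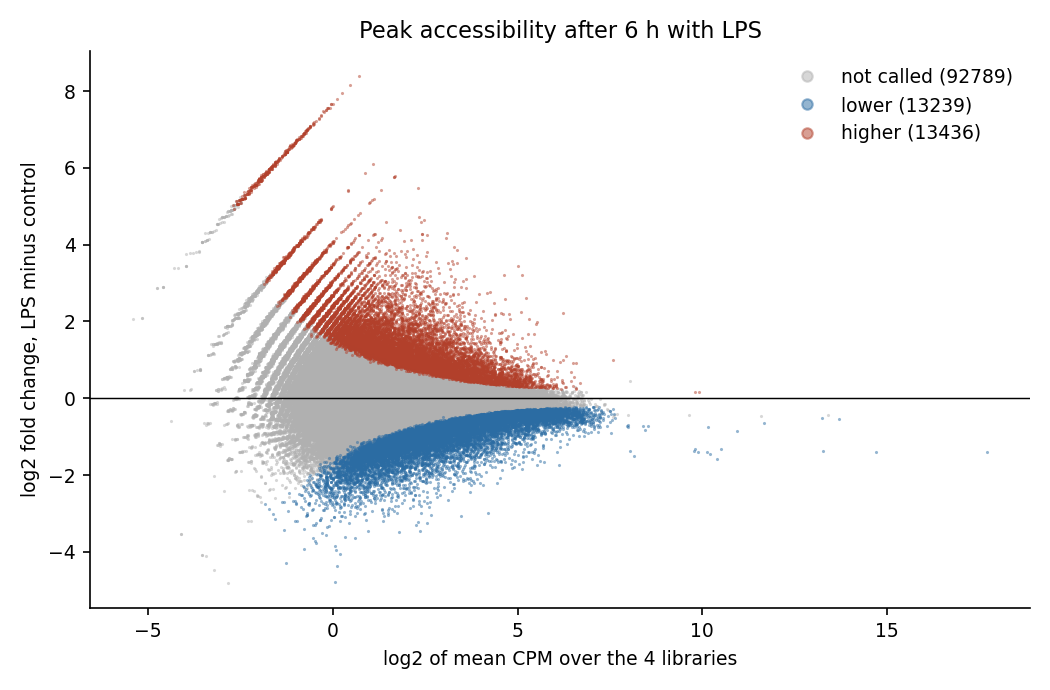
Log2 fold change of LPS over control (vertical axis) against the log2 of the mean CPM over the 4 libraries (horizontal axis), with 1 point per tested peak and colour for higher, lower and not called peaks. The 13436 higher peaks reach farther from 0 and extend to lower CPM than the 13239 lower peaks.

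The balance between gains and losses depended on how libraries were scaled. The values here use TMM factors, under which the median log2 fold change over all tested peaks was 0.03. With total counts outside the mitochondrial genome in their place the median moved to 0.45 and the split to 31161 higher and 3925 lower. All 13436 higher peaks were among those 31161, whereas 3925 of the 13239 lower peaks were called lower again. Such an upward shift makes higher calls hard to lose, so that their return is no test of them. With totals that leave out the 21 peaks of highest count, a setting chosen after the data were seen, the median was 0.14 and the split 16949 to 9957. Offsets that follow abundance gave 13327 and 12789. Of the gene list and extreme peaks examined one by one, 214 were higher and 79 lower. All 214 were higher again under total counts and under totals without the 21 peaks, which both shift values upward and so could hardly end these calls. With offsets that follow abundance all but 2 were higher again. Of the 79 lower peaks 43, 14 and 8 were not called lower again under those settings.

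A smaller share of gains than of losses lay at gene starts. Of the higher peaks 9.09% lay within 1 kb of the start of a protein-coding gene, against 24.9% of the lower peaks and 13.3% of all tested peaks. Among peaks within 1 kb of a start, 7.67% were higher and 20.7% lower. Lower peaks were also more abundant, and abundance goes with position: within the upper tercile of CPM, 16.2% of higher, 32.8% of lower and 28.1% of all peaks were at starts. In the middle tercile the shares were 4.81%, 5.21% and 6.43%, in which higher and lower peaks differed little. Under total counts the order turned, with 16.8% of higher and 13.2% of lower peaks at starts, and it held at 11.4% against 23.4% without the 21 most abundant peaks and at 12.3% against 19.4% with offsets that follow abundance. Introns and exons were not told apart here, but 57.5% of higher, 61.9% of lower and 59.1% of all tested peaks overlapped a protein-coding gene. More than 50 kb from any start lay 25.3% of higher, 31.0% of lower and 26.2% of all tested peaks.

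The 3 gains of lowest p-value lay at 2 antiviral loci and a chemokine gene. Rsad2 encodes viperin, an antiviral enzyme, and a broad peak that overlaps the gene, 3.01 kb from its start (chr12:26438731-26453446) read 25.6 and 27.98 CPM in control and 121 and 129 CPM in LPS. This was a log2 change of 2.22 with an SE of 0.10 (adjusted p = 1.5e-51). The peak over Ifit2, next to Ifit3 (chr19:34572687-34579247), whose products bind foreign RNA, went from 8.85 and 5.02 to 59.0 and 67.5 CPM. The log2 fold change was 3.21 (SE 0.15; adjusted p = 1.33e-47). Ifit genes are close copies of each other, so the split of reads among them is uncertain. At an end of Ccl5, a chemokine that recruits T cells and monocytes, the peak chr11:83521831-83527834 read 5.14 and 4.44 CPM in control and 49.6 and 39.0 CPM in LPS, a log2 change of 3.21 with an SE of 0.15 (adjusted p = 5.45e-46). This peak also overlaps Heatr9. In all 3 cases the groups were several times farther apart than their replicates.

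Beside Bace2, a protease gene, a peak 0.849 kb from an end of the gene (chr16:97443785-97449053) went from 10.2 and 10.9 to 66.4 and 63.1 CPM, a log2 fold change of 2.62 (SE 0.13). The microRNA gene Mir155, a known inflammatory regulator of myeloid cells whose sequence is shown above, lay inside a peak (chr16:84711200-84714913) that read 14.3 and 9.45 CPM in control and 56.0 and 55.5 in LPS. Its log2 fold change was 2.24 (SE 0.12, adjusted p = 1.39e-39). The next peak, chr16:84715616-84722233, went from 4.48 and 6.27 to 55.2 and 62.9 CPM, a log2 fold change of 3.45. A peak farther upstream of it, chr16:84602917-84604541, 131 kb from the nearest gene start, went from 7.10 and 7.24 to 45.2 and 40.5 CPM. The remaining 2 of the 8 peaks of lowest p-value among gains lay at Hrc, a calcium-binding protein gene (log2 fold change 1.98), and in Alcam, an adhesion receptor gene (2.73).

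Gains with the highest fold started from almost no control signal. A peak 36.8 kb from an end of Ext1, a heparan sulphate synthesis gene, held no count in either control library and 4.52 and 1.99 CPM in LPS. With a floor of 3 counts over the control group, it was at least 21.2-fold higher. On the same floor, a peak 9.39 kb from Kcnk10, a potassium channel gene, was at least 17.7-fold higher, an intergenic peak at chr7:111165253-111165665 at least 15.3-fold, and a peak 24.5 kb from Ctsc, a lysosomal protease gene, at least 13.8-fold. At an end of Iigp1, an interferon-inducible GTPase gene, the CPM was 0.219 and 0 in control and 5.30 and 6.90 in LPS. The control group held 2 counts there, and the ratio of LPS to control was 60.6, with a 95% exact interval of 16.6 to 504 that covers counting error only. A peak 2.59 kb from Ms4a6c, a membrane protein gene of myeloid cells, went from 0.109 and 0 to 4.17 and 2.97 CPM, with 1 count in the control group and a ratio of 68.0 (interval 12.0 to 2711). The other 2 peaks of this kind lay 129 kb and 160.5 kb from the nearest gene start or end, with ratios of 81.2 (interval 14.3 to 3230) and 61.2 (interval 16.7 to 509).

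Losses with the lowest p-value lay mostly away from starts. In Adam22, a peak 10.1 kb from the start fell from 75.9 and 70.5 CPM to 21.8 and 25.4 CPM, a log2 change of -1.63 with an SE of 0.12 (adjusted p = 2.36e-25). The peak at an end of Trf, which encodes the iron carrier transferrin, read 48.1 and 43.8 in control and 13.5 and 13.2 in LPS (-1.78, SE 0.14, adjusted p = 9.41e-24). The others of the 8 were next to Tstd3 and Ccnc (-1.72), Pacrgl (-2.08), Serpini2 and Wdr49 (-1.65) and Olfr630 (-1.85), inside Dapk1 (-1.83), and at chr12:113423783-113425642 (-1.74). The steepest losses were peaks of few counts, led by one inside Npl, 23.3 kb from its start, which read 2.73 and 1.25 CPM in control and 0.141 and 0 CPM in LPS. With 2 counts in the LPS group, control was 31.8 times LPS (95% exact interval 8.23 to 272, counting error only). Of these 8, the most abundant lay inside Bnc2 and went from 6.23 and 6.37 to 0.707 and 0.431 CPM (-3.48, SE 0.52). A peak inside Vsnl1 had a ratio of control to LPS of 22.3 (interval 7.11 to 113). The other 5 were in or near Dab1, Cxadr, Rb1 and Rtn1 and in an intergenic stretch of chromosome 1. The last of these, at -3.95, did not pass without control replicate 2 (-2.93).

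**Figure D2:**
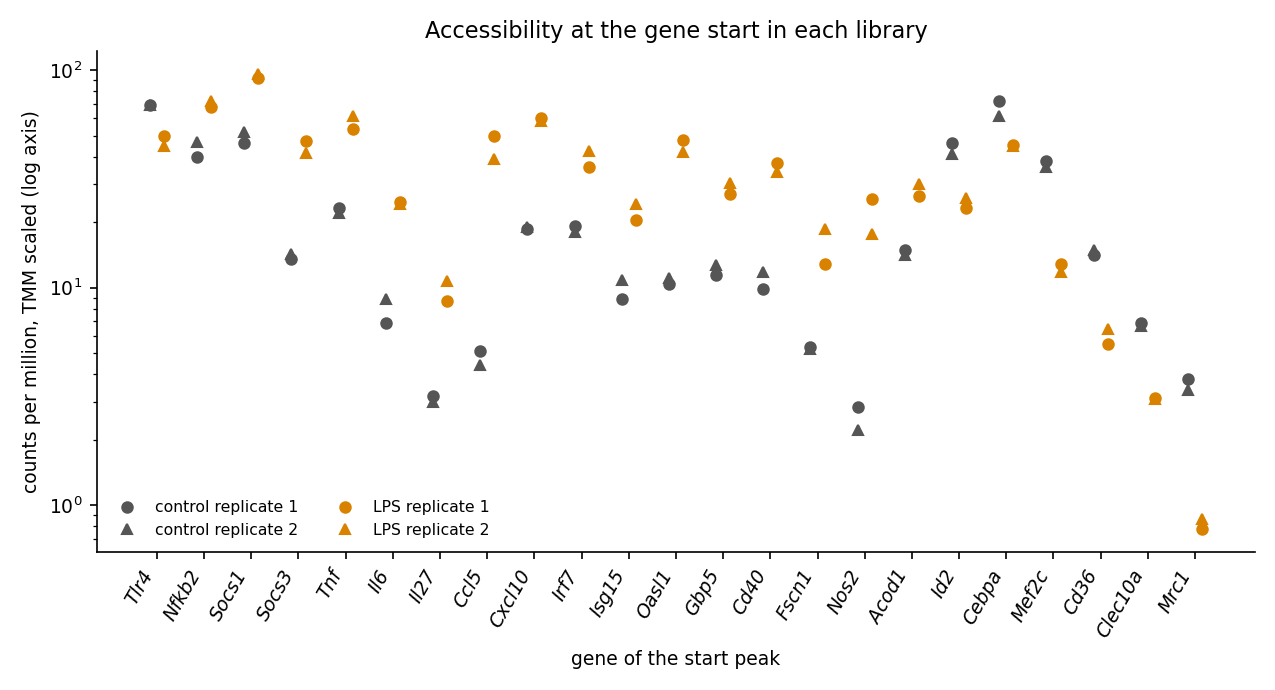
CPM (vertical log axis) of the peak at the start of selected genes (horizontal axis) in each of the 4 libraries. Where no stranded start was given, as for Tlr4, Il27, Ccl5, Cd40 and Nos2, the peak is at an end of the gene, which need not be its start. Symbols are grey for control, orange for LPS, circles for replicate 1 and triangles for replicate 2. From Nfkb2 to Acod1 both LPS libraries lie above both control libraries, and from Id2 to Mrc1, and at Tlr4, they lie below.

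Of 22 genes of the TLR4 pathway, all with a start peak, 6 (27.3%) were higher and 4 (18.2%) lower there, beside 7.67% and 20.7% of all start peaks. The median log2 fold change was -0.06, beside -0.09 over all start peaks. Among all 230 peaks linked to these genes, meaning that the gene's start was the nearest within 50 kb, 45 (19.6%) were higher and 24 (10.4%) lower, against 11.4% and 10.4% of all linked peaks. The peak at an end of Tlr4 itself read 69.2 and 69.3 CPM in control and 49.7 and 44.8 CPM in LPS. Both LPS values lay below both control values, at a log2 change of -0.55 with an SE of 0.10 (adjusted p = 6.74e-06), a call that total counts ended (-0.13). A second Tlr4 peak (chr4:66851601-66852559) lay 5.02 kb from the nearest end of the gene and 23.77 kb from the centre of the first peak. It went from 28.2 and 24.5 to 11.02 and 11.8 CPM, a log2 change of -1.21 with an SE of 0.16 (adjusted p = 5.4e-10). The peak at an end of Cd14, the coreceptor, did not pass the test, at 26.3 and 23.2 CPM against 23.2 and 21.3 (-0.15). Of 7 peaks linked to Cd14 none was higher and 1 was lower, at -2.37 to -1.57 in fits without single libraries.

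Downstream of the receptor, both arms had starts that passed and starts that did not. On the Myd88 side, the kinase genes Irak4 and Map3k7 were lower (-0.49 each), which total counts brought to -0.07. Myd88 (-0.17) and Traf6 (-0.07) did not pass the test. On the Ticam1 side, the kinase gene Tbk1 was higher, with 58.9 and 64.3 CPM in control and 80.8 and 89.8 in LPS (0.47, SE 0.09). The adaptor gene Traf3 was higher as well (0.52), though not without control replicate 1 (0.37), while Ticam1 (-0.06) and Irf3 (0.13) did not pass. The starts of Ikbke (0.71; 0.51 without LPS replicate 2 and 0.66 without control replicate 2), Irf5 (0.38; 0.29 without LPS replicate 2 or control replicate 1), Ikbkb (0.48; 0.37 without LPS replicate 1 and 0.43 without control replicate 1) and Irak3 (0.40; 0.27 and 0.29 without the same libraries) were called higher with all 4 libraries and lost the call without those named. Tirap was lower (-0.46) and lost its call under total counts (-0.03), under totals without the 21 peaks (-0.35) and without LPS replicate 1 (-0.47), LPS replicate 2 (-0.45) or control replicate 1 (-0.30). The strongest changes lay off the starts, at a peak 9.60 kb from Tab2, an adaptor for Map3k7 (1.09 and 0.386 against 6.29 and 4.96 CPM, log2 fold change 2.94, SE 0.38), and at a peak 5.36 kb from Irak2 (1.08).

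NF-kappaB genes and their inhibitors gained. Of 22 genes, 12 start peaks were higher and 3 lower, beside 7.67% and 20.7% of all start peaks. Of 305 linked peaks 88 (28.9%) were higher and 17 (5.57%) lower, against 11.4% and 10.4% of all linked peaks. The median log2 fold change was 0.43. Socs3, an inhibitor of cytokine receptor signalling, had 13.5 and 14.3 CPM at its start in control and 47.3 and 41.5 in LPS, a log2 change of 1.67 with an SE of 0.12 (adjusted p = 2.34e-26). Socs1, which restrains interferon signalling, went from 46.4 and 51.7 to 91.6 and 96.4 CPM (0.94, SE 0.09, adjusted p = 1.83e-16). In both genes the LPS libraries lay far above control. Nfkb2, which encodes the p100 subunit, went from 39.9 and 46.6 to 68.0 and 72.3 CPM (0.70), and the inhibitor genes Nfkbie (0.61) and Nfkbib (0.57) rose beside it.

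In several of these genes the start was already open and the larger change lay elsewhere. The start of Nfkbia, which encodes IkappaB alpha, read 92.8 and 92.5 CPM in control and 83.9 and 98.3 in LPS, so that the groups overlapped (-0.02, adjusted p = 0.894). It passed as higher under total counts (0.40) and with offsets that follow abundance (0.24). Of 13 peaks linked to Nfkbia 3 were higher and 2 lower. The one of lowest p-value was lower, at -1.0 to -0.91 in fits without single libraries. The start of Tnfaip3 did not pass either (0.22), whereas an adjoining peak inside the gene (chr10:19011097-19013168) went from 4.37 and 4.15 to 16.0 and 14.9 CPM (1.86, SE 0.19, adjusted p = 1.95e-15). Nfkb1 did not pass at its start (-0.13) and was higher at a peak 19.1 kb away (2.13). A peak 25.7 kb from Tnip1, an A20-binding partner, was higher (1.47). At an end of Nfkbiz, an inducible regulator of Il6, the log2 fold change was 0.40, and without control replicate 2 it no longer passed the test (0.34).

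Of the cytokine genes, 11 of 23 start peaks were higher and none lower, beside 7.67% and 20.7% of all start peaks. Among 317 linked peaks 105 (33.1%) were higher and 3 (0.95%) lower, against 11.4% and 10.4% of all linked peaks. The median log2 fold change was 0.76. Tnf, a prime target of NF-kappaB, read 23.3 and 22.0 CPM at its start in control and 53.6 and 61.8 in LPS, a log2 change of 1.35 with an SE of 0.11 (adjusted p = 2.74e-23). Il6, with the kappaB match shown above, read 6.88 and 8.88 against 24.9 and 24.2 CPM (1.63, SE 0.16, adjusted p = 2.69e-17). At an end of Il27, whose product shapes T cell responses, the values were 3.17 and 2.99 against 8.69 and 10.8 (1.67, adjusted p = 9.92e-09). Ebi3, its partner subunit, was at 0.81, Il23a at 0.95 and Il12a at 1.09, each higher.

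Il12b and Il1b changed more away from the start than at it, and Il10 more away from the peak at an end than at that peak. At Il12b, the p40 subunit of interleukin 12, the start peak read 8.52 and 6.37 CPM against 6.15 and 6.58 (-0.22, not passing). A peak 9.33 kb from that start, chr11:44389800-44390733, read 6.56 and 6.85 CPM in control and 27.5 and 26.8 in LPS (2.01, SE 0.15, adjusted p = 2.36e-26). At Il10, an anti-inflammatory cytokine, the peak at an end did not pass (0.45). A peak 21.8 kb from the nearest end of the gene, chr1:130997248-130998085, went from 0.983 and 1.74 to 10.6 and 10.8 CPM (2.95, SE 0.28, adjusted p = 2.7e-18). In both of these distal peaks the LPS libraries nearly coincided and stood well above control. Il1b did not pass at its start (0.77, adjusted p = 0.0543) and was higher at a peak 5.90 kb away (2.41). Il1rn, the antagonist of interleukin 1, was higher at 4.92 kb (2.24), and Tnfsf15, a TNF family ligand, at 12.3 kb (2.39).

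Chemokine starts were higher in 6 of 15 peaks and lower in none, beside 7.67% and 20.7% of all start peaks. Of 110 linked peaks 27 (24.5%) were higher and 4 (3.64%) lower, against 11.4% and 10.4% of all linked peaks. Besides Ccl5, the start of Cxcl10, which attracts T cells and is induced by interferon, went from 18.6 and 19.01 to 60.3 and 58.2 CPM (1.66, SE 0.11, adjusted p = 1.53e-29). That peak also overlaps Art3. Cxcl16 (1.29) and Ccl12 (0.80, not passing at 0.64 without control replicate 2) were higher at their starts. Ccl22, a chemokine of mature dendritic cells, was higher too, at 3.61 and 4.15 CPM against 8.34 and 5.50 (0.82, adjusted p = 0.0118), but this did not hold without LPS replicate 1 (0.50) or control replicate 1 (0.73). The neutrophil chemokines Cxcl1, Cxcl2 and Cxcl3 did not pass at their starts (0.41, -0.05 and -0.20). A distal peak near Cxcl5 was lower (16.7 kb, -0.80), a call that total counts ended (-0.38). A peak next to Ccl4 rose 2.49, and one 3.23 kb from Ccl7, a monocyte chemokine, 2.25.

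The interferon list had the highest share of gains. Of 31 start peaks 23 were higher and none lower, beside 7.67% and 20.7% of all start peaks. Among 259 linked peaks 106 (40.9%) were higher and 4 (1.54%) lower, against 11.4% and 10.4% of all linked peaks. The median log2 fold change was 0.74 beside 0.03 over all tested peaks. Isg15, a ubiquitin-like modifier, went from 8.85 and 10.8 to 20.6 and 24.4 CPM at its start (1.19, SE 0.15, adjusted p = 1.42e-11), and Irf7, which amplifies interferon production, from 19.1 and 18.04 to 36.03 and 42.4 (1.08). Oasl1, of the oligoadenylate synthetase family, went from 10.4 and 11.1 to 47.8 and 42.0 (2.06, adjusted p = 5.87e-34). Gbp5, a guanylate-binding protein of host defence, went from 11.5 and 12.7 to 26.9 and 30.4 (1.24). These genes showed no overlap between the groups. Dhx58 (1.11), Oas3 (1.33), Stat2 (0.51) and Irf1 (0.46) were higher as well. Of 21 peaks linked to Irf1 7 were higher and 1 lower. The lower one had the lowest p-value of them, at -1.63 to -1.32 in fits without single libraries.

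The gene of interferon beta itself behaved otherwise. The peak nearest the Ifnb1 start read 3.28 and 1.83 CPM in control and 1.77 and 3.77 in LPS, and the groups overlapped (0.18, adjusted p = 0.738). A peak 14.4 kb away reached 0.46 (adjusted p = 0.0262) and did not pass without LPS replicate 1 (0.44), LPS replicate 2 (0.49) or control replicate 1 (0.39). The start of Ifit1 was higher (0.85), as was the broad peak 8.74 kb from it (2.77).

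**Figure D3:**
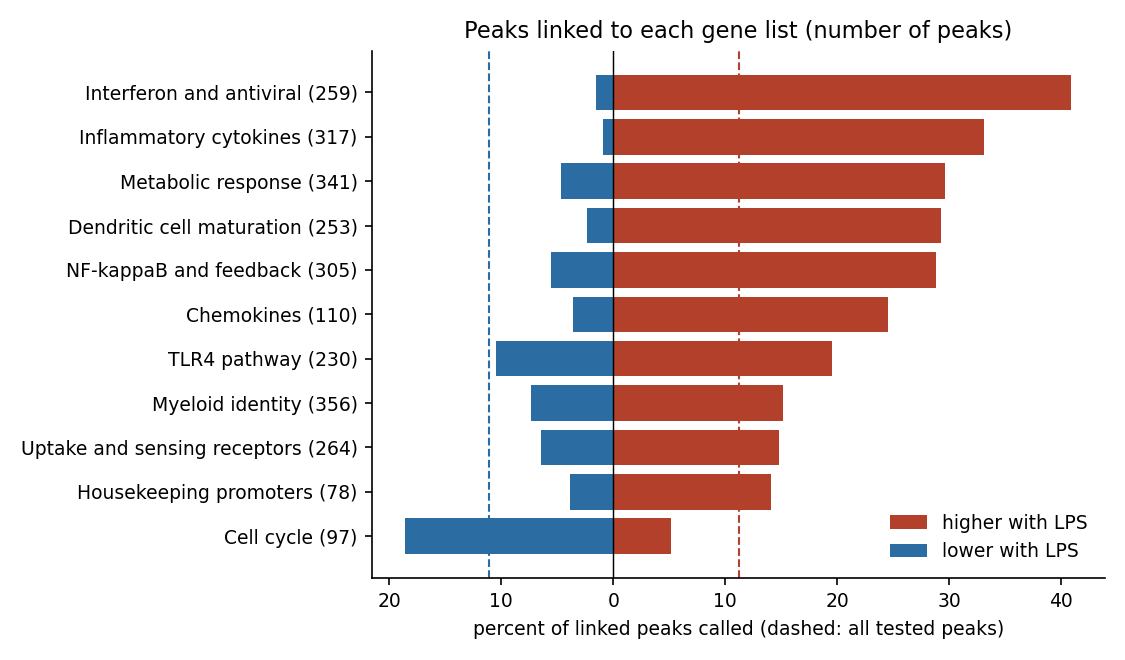
Percent of the peaks linked to each gene list (number of peaks in parentheses) that were called higher (red, right) or lower (blue, left), with dashed lines for all tested peaks (11.2% and 11.1%). Interferon genes stand highest at 40.9% higher and 1.54% lower, and cell cycle genes are the only list with more lower (18.6%) than higher peaks (5.15%).

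Maturation genes gained at selected starts. Of 23 start peaks 7 were higher and 1 lower, beside 7.67% and 20.7% of all start peaks. Of 253 linked peaks 74 (29.2%) were higher and 6 (2.37%) lower, against 11.4% and 10.4% of all linked peaks. Cd40, the costimulatory receptor, had a peak at an end that went from 9.83 and 11.8 to 37.4 and 33.9 CPM (1.71, SE 0.14, adjusted p = 8.15e-24). Fscn1 encodes fascin, which bundles actin in migrating dendritic cells, and went from 5.35 and 5.21 to 12.8 and 18.5 (1.58, adjusted p = 3.42e-10). Cd274, which encodes PD-L1, was higher (0.85), as was the start shared by Tap1 and Psmb9, genes of antigen processing (0.76). At an end of Ccr7, the lymph node homing receptor, the values were 28.7 and 28.5 against 38.5 and 55.4 (0.72, adjusted p = 0.0128), a call lost without LPS replicate 2 (0.43), control replicate 1 (0.74) or control replicate 2 (0.71). Cd80 (-0.13) and Cd86 (0.21) did not pass at their starts, though Cd86 did under total counts (0.64). A peak 33.4 kb from Cd86 went from 1.09 and 1.74 to 7.91 and 9.76 CPM (2.62, SE 0.30). Distal gains were also seen 19.3 kb from Pdcd1lg2 (1.88), 9.40 kb from Cd83 (1.91) and 6.89 kb from Traf1 (2.26). Ciita, the master regulator of MHC class II, was lower at an end of the gene, at 3.28 and 4.34 against 0.919 and 2.10 CPM (-1.30, adjusted p = 0.023). A peak 6.64 kb from the nearest end of Ciita was higher (1.20). The first of these calls did not hold under total counts (-0.89), without LPS replicate 1 (-0.86) or without control replicate 2 (-1.08). The class II genes H2-Ab1 (0.33), H2-Aa (0.17) and Cd74 (-0.07) did not pass at their starts.

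Among genes of the metabolic response, 101 of 341 linked peaks (29.6%) were higher and 16 (4.69%) lower, against 11.4% and 10.4% of all linked peaks. Nos2, the inducible nitric oxide synthase, read 2.84 and 2.22 CPM at an end of the gene in control and 25.6 and 17.7 in LPS, a log2 change of 3.10 with an SE of 0.23 (adjusted p = 4e-25). This peak overlaps Lgals9. Acod1, which makes itaconate, went from 15.0 and 14.2 to 26.4 and 29.9 at its start (0.95), and a broad peak beside it (chr14:103048034-103061394) from 131 and 125 to 254 and 259 CPM (1.00, SE 0.08). Ptges, which makes prostaglandin E, had a distal peak at 21.4 kb that went from 5.79 and 9.36 to 31.7 and 36.7 CPM (2.16, adjusted p = 2.92e-30). Ptgs2, which acts before it, did not pass at its start (0.34). That start passed under total counts (0.77), with totals without the 21 peaks (0.45) and with libraries thinned to 1 depth (0.46). Hif1a was lower at its start (-0.34), a value that became 0.09 under total counts and lost its call with offsets that follow abundance (-0.17), with totals without the 21 peaks (-0.22) and without LPS replicate 1 (-0.26) or control replicate 2 (-0.30). Arg1, an arginase that competes with Nos2 for arginine, did not pass at an end (-0.25). It was lower at a peak 22.7 kb from the nearest end, at 17.3 and 10.9 against 4.59 and 4.91 CPM (-1.56, SE 0.24).

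Gains clustered along the chromosome at some of these genes. Nos2 and Lgals9 held the longest run, 14 consecutive tested peaks over 69.6 kb (chr11:78950081-79019717), all higher, at log2 fold changes of 0.52 to 7.07. Windows of 60 kb were laid around the start peak, which for Nos2, Il10 and Tlr4 is at an end of the gene and need not be its start. In this window Nos2 had 23 of 28 peaks higher and none lower, beside 11.2% and 11.1% of all tested peaks. Slc7a2, a transporter of arginine, had 28 of 50 higher and 1 lower, and Il10 13 of 48 higher and none lower. Around Tlr4, by contrast, 1 of 21 was higher and 6 were lower. Among 16663 genes with a linked peak, 32 had 10 or more higher peaks and 4 had 10 or more lower peaks. The genes with the most higher peaks were Endov (30 of 52) and Rnf213 (22 of 40), which share a stretch of chromosome 11, Slc7a2 (29 of 51), Nos2 (20 of 25), Nfkb1 (18 of 51) and Parp14 (16 of 35), an antiviral ADP-ribosyltransferase. Those with the most lower peaks were Emb (10 of 20), Stk24 (10 of 33), Zfp608 (10 of 39) and Mmp12 (10 of 18), a macrophage elastase. The longest run of losses, 12 peaks at chr4:88773067-88806540 (-1.30 to -0.89), lies in the type I interferon cluster, whose genes are near-identical copies, so that the place of its reads is uncertain. By chromosome the share of higher peaks was highest on chromosome 11 (16.0%, with 5.77% lower) and lowest on X (6.59%, with 16.3% lower).

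**Figure D4:**
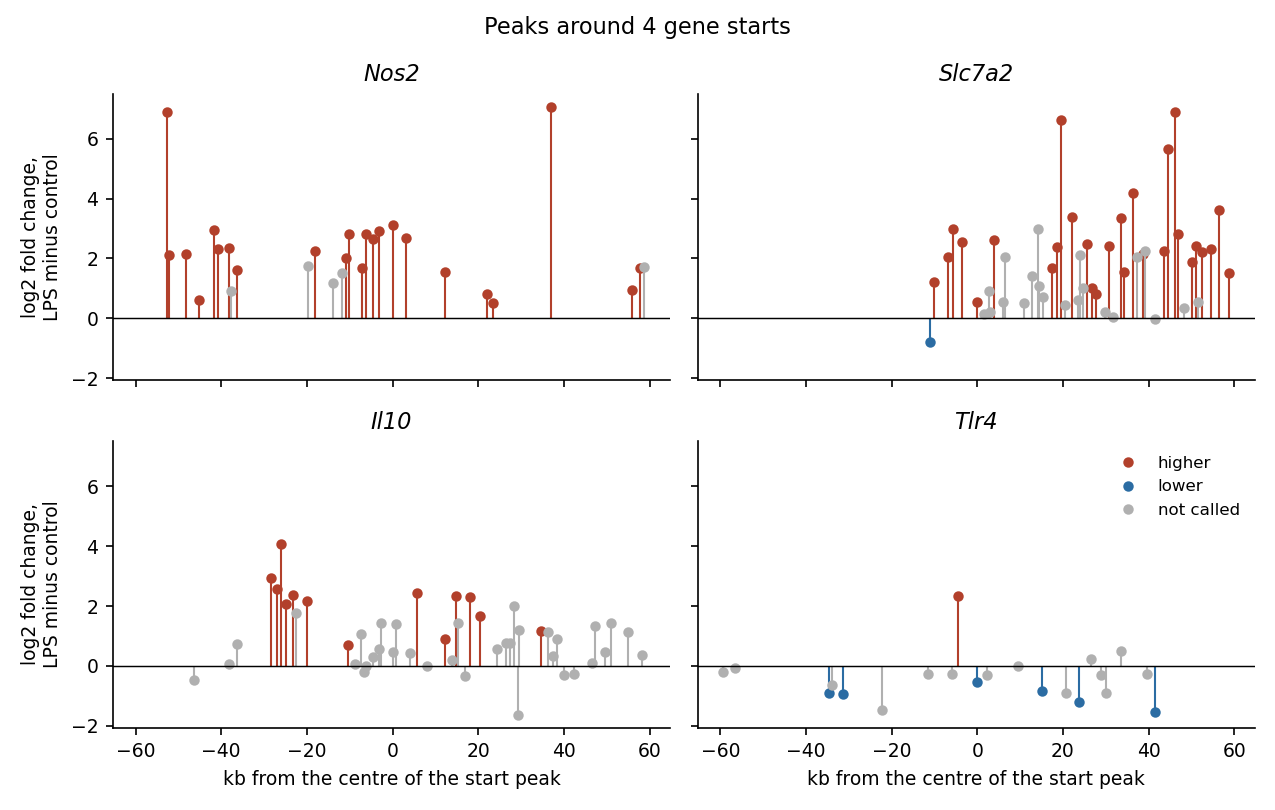
Log2 fold change of LPS over control (vertical axis) for each tested peak within 60 kb of the centre of the start peak (horizontal axis, kb). The genes are Nos2, Slc7a2, Il10 and Tlr4, and points are coloured by call. For Nos2, Il10 and Tlr4 the start peak is the peak at an end of the gene, which need not be its start. Higher peaks fill most of the Nos2 panel (23 of 28), whereas 6 of 21 peaks at Tlr4 are lower and 1 is higher.

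Among regulators of myeloid identity, 2 of 23 start peaks (8.70%) were higher and 6 (26.1%) lower, beside 7.67% and 20.7% of all start peaks, and 54 of 356 linked peaks (15.2%) were higher and 26 (7.30%) lower. Mef2c, a transcription factor of myeloid and other cells, went from 38.1 and 35.8 to 12.8 and 11.9 (-1.59, SE 0.16, adjusted p = 1.06e-15). Id2 and Irf4, both needed by dendritic cell subsets, were lower at 46.2 and 41.2 against 23.2 and 25.8 CPM (-0.83) and at 15.3 and 15.1 against 6.92 and 9.92 CPM (-0.83). The Irf4 call did not hold under total counts (-0.41) or without LPS replicate 1 (-0.61). Cebpa was lower too (-0.56), reaching -0.14 under total counts, where it did not pass. Spi1, which encodes PU.1 (0.12), Irf8 (0.32), Itgax (-0.05) and Csf1r (0.38) did not pass at their starts, and neither did Cx3cr1 (-0.34). Csf1r passed as higher with RLE scaling (0.39), total counts (0.81), offsets that follow abundance (0.43) and totals without the 21 peaks (0.50). It also passed with the mitochondrial peak kept (0.41) and with only the compared groups (0.41). Of 10 peaks linked to Csf1r none was called higher with the main settings and 1 was lower (-0.63). That call was lost under total counts (-0.20) and totals without the 21 peaks (-0.51). It was also lost without LPS replicate 1 (-0.69), LPS replicate 2 (-0.57) or control replicate 1 (-0.55). Irf8 passed under total counts (0.75) and totals without the 21 peaks (0.44). The macrophage marker Adgre1, which encodes F4/80, was higher (0.75). Distal peaks of Cebpb (27.7 kb, 1.41) and Irf8 (24.5 kb, 1.42) were higher, and 1 of Csf2ra, a subunit of the GM-CSF receptor, was lower (37.9 kb, -1.05).

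Among uptake and sensing receptors, 4 of 21 start peaks (19.05%) were higher and 6 (28.6%) lower, beside 7.67% and 20.7% of all start peaks. Of their 264 linked peaks 39 (14.8%) were higher and 17 (6.44%) lower, with a median log2 fold change of 0.10. Mrc1, the mannose receptor whose promoter is shown above, read 3.82 and 3.38 CPM in control and 0.777 and 0.863 in LPS (-2.11, SE 0.49, adjusted p = 0.00038). Cd36, a scavenger receptor, read 14.2 and 15.0 against 5.51 and 6.47 (-1.28, SE 0.25, adjusted p = 2.4e-05). Both calls held at every scaling. The other 4 lower starts were those of the lectin Clec10a (-1.13), the lipid sensor Trem2 (-0.72), the chemokine receptor Cxcr4 (-0.72) and Tlr2 (-0.38), and total counts ended each of these calls (-0.70, -0.30, -0.30 and 0.04). Tlr2 also lost its call with offsets that follow abundance (-0.32) and with totals without the 21 peaks (-0.27). Clec10a did not pass without LPS replicate 1 (-1.14), LPS replicate 2 (-1.12) or control replicate 1 (-1.10), Trem2 without LPS replicate 1 (-0.53) or control replicate 2 (-0.65), and Tlr2 without LPS replicate 1 (-0.35), LPS replicate 2 (-0.41) or control replicate 1 (-0.25). Tlr9, a sensor of DNA, was higher, at 9.40 and 10.2 against 17.7 and 22.8 CPM (1.05, adjusted p = 2.59e-07). Distal peaks were lower near Tlr3 (4.50 kb, -1.83) and Cd163 (30.8 kb, -0.94) and higher near Marco (30.8 kb, 2.89) and Mertk (4.95 kb, 2.99).

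Of 97 peaks linked to cell cycle genes, 5 (5.15%) were higher and 18 (18.6%) lower. Of 15 start peaks 6 were lower and none higher, beside 20.7% and 7.67% of all start peaks: Myc (-0.80), Ccna2 (-0.66), Cdk1 (-0.40), E2f8 (-0.35), Ccne1 (-0.30) and Pcna (-0.29), all needed for division or its control. Ccna2 read 98.4 and 84.5 CPM against 52.003 and 63.8. None of the 6 was called lower under total counts. Cdk1, Ccne1 and Pcna also lost their calls under totals without the 21 peaks (-0.29, -0.19 and -0.18), and these with E2f8 under offsets that follow abundance (-0.29, -0.08, -0.13 and -0.12). Myc did not pass without LPS replicate 2 (-0.61) or control replicate 2 (-0.55). Cdk1 did not pass without LPS replicate 1 (-0.39) or control replicate 1 (-0.20), and Ccne1 without LPS replicate 1 (-0.19), control replicate 1 (-0.31) or control replicate 2 (-0.29). Pcna did not pass without LPS replicate 1 (-0.28), LPS replicate 2 (-0.31) or control replicate 1 (-0.17). With total counts 3 start peaks were higher and none lower, and the median over the 97 linked peaks moved from -0.10 to 0.32, or to 0.01 without the 21 most abundant peaks. Housekeeping genes, listed for comparison, had 1 start peak higher (Polr2a, 0.32, not passing without LPS replicate 1 at 0.33, LPS replicate 2 at 0.31 or control replicate 1 at 0.22) and 2 lower (Eef1a1, -0.43, not passing at -0.21 with offsets that follow abundance, and Hprt, -0.49, not passing at -0.42 without control replicate 1) of 13, with a median of 0.01 that became 0.44 under total counts, where 8 were higher and none lower. Actb (0.10) and Gapdh (0.01) did not pass.

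The motifs were counted in the 250 bases before the start for 792 promoters whose peak was higher, 2687 whose peak was lower and 11029 with any tested peak. The ISRE was in 7.95% of the higher and 2.16% of the lower promoters, against 2.98% with any tested peak and 2.98% of all 32851 promoters of the table. AP-1 was in 9.22% and 4.13%, against 5.30% and 6.75%, and kappaB in 7.07% and 5.28%, against 5.54% and 4.65%. The shares run the other way for NRF1, a motif of constitutive GC-rich promoters, with 4.17% and 7.63% against 7.36% and 3.74%. The 95% exact binomial intervals of the ISRE shares were 6.17% to 10.1% and 1.64% to 2.78%, which cover counting error only, and those of the kappaB shares overlapped, at 5.39% to 9.08% and 4.47% to 6.20%. Median GC content was 56.4% in higher and 60.4% in lower promoters, and its part in these shares was not tested. Distal peaks, which are most of the gains, have no sequence here.

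Peaks within 2 kb of microRNA hairpins of the RefSeq table were also read. Of 365 hairpins with a tested peak in that range, 74 had a higher peak and 48 a lower peak. Of all tested peaks 11.2% were higher and 11.1% lower. Those shares count peaks, and a hairpin can have several, so the hairpin counts are not directly comparable with them. Besides Mir155, peaks beside Mir21a (0.80), Mir221 and Mir222 (1.03) and Mir147 (2.90) were higher, and the peak over Mir223, a granulocyte and monocyte microRNA, was lower, at 5.68 and 4.73 against 2.33 and 2.16 CPM (-1.21). These microRNA genes were chosen after their values were seen.

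LPS was also given together with PAM or HMW, and those comparisons share no library with LPS against control. Adding LPS here means the group with LPS against the group without it, in separate libraries. Adding LPS to PAM (PL against P) changed 8.46% of tested peaks, with 4982 higher (4.17%) and 5124 lower (4.29%). Adding it to HMW (LH against H) changed 3.78%, with 3168 higher (2.65%) and 1344 lower (1.13%). The mitochondrial share in these 8 libraries (P, PL, H and LH) was 48.5% to 53.8%, and it overlapped between the groups compared. Of the peaks higher with LPS alone, 18.96% were higher again when LPS was added to PAM, with a median log2 fold change of 0.31, and 16.3% when it was added to HMW, with a median of 0.37. Of the peaks lower with LPS alone, 15.4% and 4.92% were lower again, with medians of -0.27 and -0.20. The peaks not called with LPS alone had medians of 0.02 and -0.02. The peaks shared among gains were 51.1% of the gains on PAM and 69.0% of the gains on HMW, and those among losses 39.8% and 48.4%. Where PAM and HMW were both present, LPS changed 189 peaks upward (0.158%) and 107 downward (0.0896%), 0.248% in all. By edgeR's interaction term, the change on PAM differed from that with LPS alone at 8065 peaks (6.75%; 2.57% more positive, 4.18% more negative), and the change on HMW at 5833 (4.88%; 2.26% and 2.62%).

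**Figure D5:**
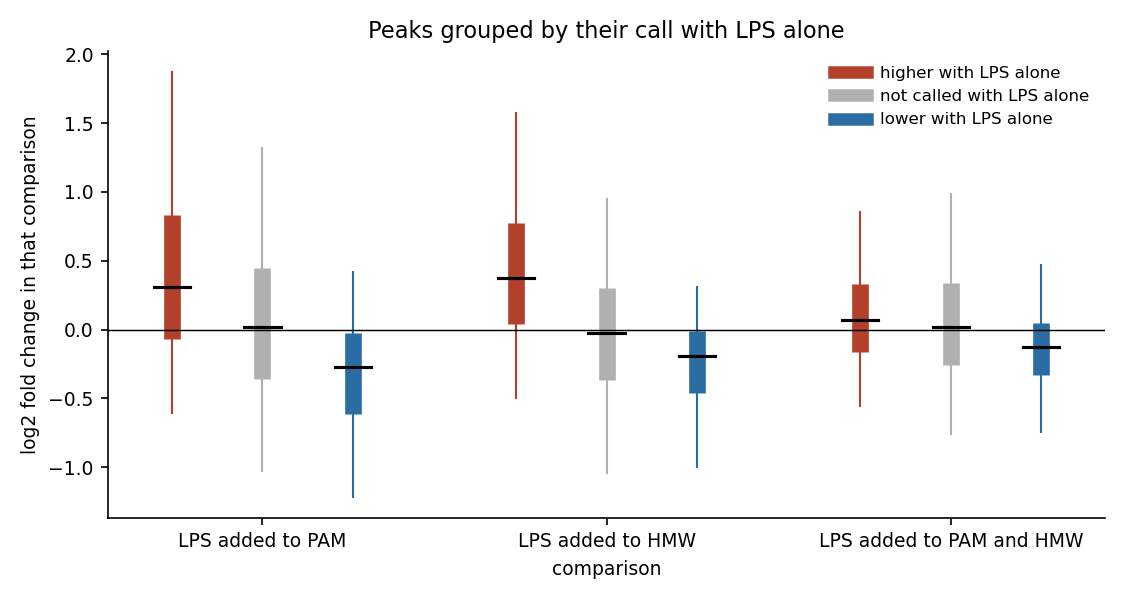
Log2 fold change (vertical axis) when LPS was added to PAM, to HMW or to both (horizontal axis), for peaks higher, not called or lower with LPS alone; thick bars span the middle 50% of peaks, thin lines the 5th to 95th percentile, and black marks are medians. Medians of peaks higher with LPS alone are 0.31, 0.37 and 0.07, above those of peaks lower with LPS alone, at -0.27, -0.20 and -0.13.

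Values for single genes are given side by side for each ligand that accompanied LPS. Among interferon genes, LPS on PAM gave 72 of 259 linked peaks higher and 2 lower (median 0.63), beside 4.17% and 4.29% of all tested peaks. LPS on HMW gave 11 higher and none lower (median 0.06), beside 2.65% and 1.13%. Ccl5 read 11.4 and 13.5 CPM with PAM and 69.1 and 65.1 with PAM and LPS (2.43, SE 0.12), against 31.0 and 29.5 with HMW and 59.5 and 46.0 with LPS and HMW (0.81, SE 0.11). Nos2 read 2.98 and 2.60 against 27.4 and 35.5 CPM on PAM (3.49) and 10.9 and 8.10 against 21.0 and 18.2 on HMW (1.04). The Ifnb1 peak that LPS alone left without a call was higher when LPS joined PAM, at 1.22 and 1.30 against 3.73 and 4.48 CPM (1.68, SE 0.33, adjusted p = 7.79e-05), and not when it joined HMW (0.25). Tnf stood at 48.9 and 59.8 CPM with PAM alone and at 47.7 and 56.3 with PAM and LPS (-0.07, not passing). The distal Il12b peak was likewise at 36.9 and 35.5 with PAM and 39.1 and 32.9 with both (0.00), and rose on HMW from 13.7 and 16.5 to 37.4 and 33.9 (1.25). The Tlr4 peak 5.02 kb from the nearest end of the gene was lower on both, at -1.16 on PAM and -0.63 on HMW.

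LPS was also set against each of the other single ligands directly; these contrasts share the LPS libraries with LPS against control, so only their own counts are given. Against PAM, LPS differed at 11.1% of peaks, with 6201 higher (5.19%) and 7017 lower peaks (5.87%), with interferon genes at 99 higher and 6 lower of 259 and cytokine genes at 24 higher and 31 lower of 317. Against HMW it differed at 3.71%, with 2744 higher (2.30%) and 1686 lower (1.41%), with interferon genes at 14 and 3 and cytokine genes at 26 and 1.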

How the data were processed

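ATAC-seq read counts per peak were deposited by the authors for 36 libraries in 18 groups of 2, as raw counts with no normalization. Per the labels' protocols, 50000 cells were lysed and libraries were amplified for 12 PCR cycles; the submitters' processing notes list Bowtie2 2.2.9, MACS2 1.4, bedtools, featureCounts and the build mm10. Duplicate removal, any shift for the transposase and pooling of libraries for peak calling are not given in the sources used here. PCR reads carry no molecular identifiers, so intervals (exact Clopper-Pearson, 95%) cover counting error only.

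The mitochondrial peak and 286 peaks of low count were left out, and 119464 peaks were tested in 1 edgeR quasi-likelihood fit (edgeR 4.0.16, R 4.3.3, TMM scaling) over the 36 libraries, with Benjamini-Hochberg adjusted p-values under 0.05 as calls. CPM values are counts scaled to the library total outside the mitochondrial genome, TMM scaled. The correlation of the deviations of same-numbered libraries (-0.0125) gave no sign that replicate numbers pair libraries across groups. Starts came from RefSeq (GRCm38.p6) for protein-coding genes. Where no stranded start was given (4408 of 21900), both ends were used, written as an end of the gene. Counts of start peaks and distances to a start include such ends, which need not be the start. Alternatives were RLE scaling, total counts, abundance-dependent offsets, no filter, the mitochondrial peak kept, DESeq2 1.42.0, only the compared groups, a replicate block, thinning and leaving out each library. Totals without the 21 most abundant peaks were added after the data were seen. The fit was tested on simulated data with 119255 peaks for LPS against control: of 50 changed peaks each, 33 were recovered at a log2 change of -2, 11 at -1, 18 at 1 and 50 at 2, with 8 false calls. In the simulation LPS equalled control outside the changed peaks, and the same relative spread served all peaks. It held no shift in the 21 most abundant peaks, so its rates need not apply to the real comparison.

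Genes were named by rule: the 8 peaks of highest and of lowest fold change and the 8 of lowest p-value in each direction, where CPM averaged 1 or more and groups did not overlap. Per list these were the start peak and the linked peak of lowest p-value for the 4 genes of lowest p-value and for a set of known LPS genes. The 6 genes with the most higher linked peaks and the 4 with the most lower were named too. Genes tied at 9 lower linked peaks were not named. Other list genes are examples chosen after their values were seen. Members and lists were chosen with earlier results of these data known. Some results are not reported here.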

Additional observations from a re-analysis of the deposited data

Results flagged for a closer look

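The response to LPS differed with the ligand given beside it, by a test of the difference itself. The change on adding LPS to PAM differed from the change with LPS alone at 8065 peaks (6.75% of those tested), by edgeR's interaction term, with 3073 more positive and 4992 more negative on PAM. The change on adding LPS to HMW differed at 5833 peaks (4.88%), with 2703 more positive and 3130 more negative. LPS against control spans the gap in mitochondrial share described above, while the other comparisons lie within libraries of lower share, and the part of that gap in these differences was not tested.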

How the results depend on the processing

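Scaling moved the split of LPS against control: total counts gave 31161 higher and 3925 lower peaks, and totals without the 21 most abundant peaks 16949 and 9957. The cause was not tested. An adjusted p-value under 0.01 gave 16632 called peaks (8298 higher, 8334 lower), and a 2-fold minimum 15986 (6266 lower). Leaving out 1 library gave 16320 to 19793 called, 8594 to 10025 higher (lowest without control replicate 1) and 7726 to 10085 lower (7762 without LPS replicate 1, 7726 without control replicate 1). It gave 4799 to 6421 for LPS added to PAM, 1909 to 2203 for LPS added to HMW, 51 to 97 for LPS added to both, 7028 to 8713 against PAM and 1766 to 2370 against HMW. For LPS added to both, only the compared groups gave 672 and thinning 158; the cause was not tested.

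Blocking on replicate number gave 26547 called peaks (13383 higher, 13164 lower), and the block changed the side of no comparison; the libraries share only a number.

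List medians under total counts, and under totals without the 21 peaks, were 0.63 and 0.32 for the TLR4 pathway, 0.85 and 0.54 for NF-kappaB, 1.17 and 0.87 for cytokines, 1.04 and 0.73 for chemokines, 1.16 and 0.85 for interferon, 1.09 and 0.78 for maturation, 0.97 and 0.66 for metabolic, 0.57 and 0.26 for myeloid, 0.53 and 0.22 for uptake, and 0.67 and 0.36 for housekeeping genes. Cell cycle genes turned direction, from -0.10 to 0.32 and 0.01. With offsets that follow abundance the medians were 0.70 for cytokines, 0.73 for interferon, 0.61 for maturation, 0.48 for metabolic, 0.13 for myeloid and -0.04 for cell cycle genes. With links of 10 kb they were 0.48 for NF-kappaB, 0.88 for cytokines, 0.80 for interferon, 0.18 for myeloid, 0.13 for uptake, -0.16 for cell cycle and 0.13 for housekeeping genes. Without 1 library they ranged from 0.14 to 0.28 (TLR4 pathway), 0.40 to 0.48 (NF-kappaB), 0.67 to 0.81 (cytokines), 0.52 to 0.66 (chemokines), 0.71 to 0.79 (interferon), 0.59 to 0.62 (maturation), 0.53 to 0.60 (metabolic), 0.14 to 0.18 (myeloid), 0.12 to 0.15 (uptake), -0.17 to -0.05 (cell cycle) and 0.13 to 0.30 (housekeeping).

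The share of higher and of lower peaks at starts was 7.08% and 23.7% within 500 bases, 12.3% and 19.4% with offsets that follow abundance, 16.8% and 13.2% with total counts, and 11.4% and 23.4% without the 21 peaks. By tercile of CPM it was 2.99% and 3.67%, 4.81% and 5.21%, and 16.2% and 32.8%. Of single peaks, Nfkbia turned from -0.02 to 0.40 with total counts and 0.24 with offsets that follow abundance, E2f8 from -0.35 to 0.08, Cdk1 from -0.40 to 0.03 and Hif1a from -0.34 to 0.09 with total counts.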
